A study of Zea mays with 24 samples.

Results

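Auxin genes were described in maize leaves under drought and normal watering. They were the gene that the study calls *IAA7* (GRMZM2G079200) and every gene whose sequence description in the W22 and DH4866 tables contains "auxin" or "indole-3-acetic acid". The rule used no expression value. It found 106 of the 37467 genes listed in any library. By description these were 18 Aux/IAA, 20 ARF, 33 SAUR, 5 GH3 and 13 transport genes. The description of 17 others placed them in none of these classes. Among these is GRMZM2G156470, which has *saur3* as a RefSeq synonym. Names are those of the descriptions. GRMZM2G079200 is called *IAA7* here after the study, although its description reads *IAA23*, and the gene described as *IAA7* (GRMZM2G121309) is another locus. Several names belong to more than 1 locus, so the identifier is given with each.

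The 24 RNA-seq libraries formed 3 sets of 8, with 2 libraries in each of 4 groups. The W22 set held the *zmnf-ya1* mutant under drought and normal conditions and its inbred background W22 under the same conditions. The mutant is homozygous for 1 UniformMu transposon insertion in *ZmNF-YA1* (GRMZM2G000686), which codes for the DNA-binding subunit of the nuclear factor Y complex. The B104 set held 1 *ZmNF-YB16* overexpression (OE) line and B104, each under drought and normal conditions. The DH4866 set held libraries labelled *ZmNF-YA1* OE and the inbred DH4866, each under drought and normal conditions. The *ZmNF-YA1* OE construct is driven by the stress-inducible Arabidopsis *RD29A* promoter. All labels give leaf at the V4 stage. The methods give top leaves of potted greenhouse plants for the W22 set and ear leaves from field plots after pollination for the B104 set, so the B104 set may differ in stage from its label. The methods also give a BGISEQ sequencer and TRIzol RNA for the W22 set, and an Illumina HiSeq sequencer and another RNA extraction for the B104 set. Differences between sets in line, stage, platform and extraction therefore cannot be told apart. Leaves of several plants were pooled for each library.

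Auxin acts by removing repressors. It binds TIR1-type F-box receptors together with Aux/IAA proteins, the Aux/IAA proteins are degraded, and the auxin response factors (ARF) that they held back can act on genes such as the SAUR, GH3 and Aux/IAA genes themselves. Many GH3 enzymes join auxin to amino acids and so lower its free pool. PIN proteins carry auxin out of the cell or, in the PIN5 type, into the endoplasmic reticulum, and AUX1-type carriers bring it in. In leaves the hormone is best known for vein patterning, cell expansion and growth.

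Each library of the W22 set held between 20863136 and 21178202 estimated counts, and each of the DH4866 set between 20696448 and 21289711. Those of the B104 set held only 3429314 to 5608889, so small differences in low genes were less detectable there. *ZmNF-YA1* itself had 5.17 and 5.72 CPM (normalised counts scaled to a common library size) in *zmnf-ya1* and 11.8 and 12.6 CPM in W22 under normal conditions, and was called lower in *zmnf-ya1* (log2 -1.16, SE 0.12, adjusted p = 3.3e-06). Under drought it had 5.20 and 4.83 CPM in *zmnf-ya1* and 5.67 and 6.71 CPM in W22 and was not called. The paper reports that transcripts of the gene were absent from the mutant lines. Why reads were counted for it in *zmnf-ya1* was not tested. In the DH4866 set it had 12.9 and 11.8 CPM in the libraries labelled *ZmNF-YA1* OE and 11.5 and 11.7 CPM in DH4866 under normal conditions, and 6.38 and 6.56 CPM in those libraries and 7.04 and 7.23 CPM in DH4866 under drought. The targeted gene was thus not called higher there (adjusted p = 0.544 under normal conditions and 0.424 under drought), and the line is given as labelled *ZmNF-YA1* OE. The 5 listed markers of C4 leaf cells summed to 51410 to 66310 CPM in the W22 set and 55980 to 66620 CPM in the DH4866 set. In the B104 set they summed to 11850 to 12210 CPM in *ZmNF-YB16* OE and 8655 to 8738 CPM in B104 under drought, and to 41850 to 42720 CPM in *ZmNF-YB16* OE and 46630 to 47040 CPM in B104 under normal conditions. The 6 markers of dividing cells summed to 11.8 to 13.6 CPM in *zmnf-ya1* and 13.2 to 14.1 CPM in W22 under drought, and to 4.60 to 5.03 CPM in *zmnf-ya1* and 4.07 to 4.27 CPM in W22 under normal conditions. They summed in the DH4866 set to 8.44 to 9.40 CPM in the labelled line and 8.49 to 9.26 CPM in DH4866 under drought, and to 7.10 to 8.06 CPM in the labelled line and 6.47 to 7.36 CPM in DH4866 under normal conditions. Over the B104 set the sums were 10.1 to 11.6 CPM in *ZmNF-YB16* OE and 10.4 to 10.8 CPM in B104 under drought, and 14.6 to 15.5 CPM in *ZmNF-YB16* OE and 10.3 to 11.5 CPM in B104 under normal conditions. Of the 4 tested in each set, 2 were called higher under drought in each genotype of the W22 and DH4866 sets, 1 was lower by drought in *ZmNF-YB16* OE, and 1 was lower in *ZmNF-YB16* OE than in B104 under drought. The 5 kernel markers, genes with zein in their description, summed to 19.3 to 61.5 CPM and pollen markers to 69.8 to 130 CPM over all 24 libraries. Of these 5, 1 was tested in each set, and 4 had 0 counts in *zmnf-ya1* drought libraries, where the sum was 48.5 to 51.3 CPM. The list includes a zein protein-body membrane protein gene (GRMZM2G094532), so the sums need not come from zeins. The part of these levels in the auxin results was not tested. The level of *ZmNF-YB16* was not analysed here. In such bulk leaf samples fewer cells of a type and less RNA per cell cannot be told apart.

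After removal of genes with low counts, 78 of the 106 auxin genes were tested in the W22 set, 64 in the B104 set and 80 in the DH4866 set. In all, 85 were tested in at least 1 set, 60 in all 3, and 21 in none, where no library had more than 20 counts for any of them. A gene was called when its log2 fold change was above 1 or below -1 with an adjusted p below 0.05 over all genes of the set (edgeR quasi-likelihood test). Of the 85 genes, 64 (75.3%) were called in at least 1 of the 15 contrasts, against 64.2% of all 26896 genes tested in at least 1 set. These were 12 of 14 Aux/IAA, 10 of 16 ARF, 17 of 25 SAUR, 5 of 5 GH3, 8 of 10 transport and 12 of 15 other genes. Many are paralogs whose shared reads were divided by estimation, so the split between close copies is uncertain.

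Levels between genes were compared as FPKM, which corrects for transcript length. *IAA17* (GRMZM2G147243) was the most abundant, with a mean of 140.0 FPKM over the 24 libraries and a range of 31.9 to 194 FPKM. *IAA15* (GRMZM2G004696) followed with 72.7 FPKM, then the auxin-repressed 12.5 kDa protein-like gene GRMZM2G005146 with 59.7 FPKM, whose median was only 3.64 FPKM. Among the ARF genes GRMZM2G378580 was highest with 56.0 FPKM, followed by *ARF9* (GRMZM2G017187) with 35.4 and *ARF4* (GRMZM2G116557) with 34.5 FPKM. *SAUR56* (GRMZM2G414727) led the SAUR genes with 47.7 FPKM, and the BIG-like gene GRMZM2G461586, similar to a protein needed for auxin efflux in Arabidopsis, had the highest mean of the transport genes, 29.0 FPKM. Its median was 7.29 FPKM, with all values above 60 FPKM in the B104 set, and *PIN5a* (GRMZM2G025742) had a higher median of 32.9 FPKM at a mean of 27.2 FPKM. GH3 genes were low, and the highest of them, GRMZM2G378106, averaged 1.69 FPKM. These ranges overlap widely between neighbours in the order, and the sets differ in level, so the order is a description of means over all libraries. Level and constancy differed between genes. *IAA19* (GRMZM2G573324) stayed within 12.5 to 20.9 FPKM in all 24 libraries, whereas GRMZM2G005146 spanned 0.920 to 219 FPKM, with its high values in the B104 set.

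Drought changed auxin genes in both directions in each of the 6 genotypes. In *zmnf-ya1*, 13 auxin genes rose and 15 fell under drought, against 12.1% and 13.2% of all genes tested. In W22, 11 rose and 14 fell, against 17.5% and 14.4% of all genes. In the B104 set, 7 rose and 15 fell in *ZmNF-YB16* OE, with 11.3% and 11.9% of all genes, and 12 rose and 10 fell in B104, with 12.1% and 13.0% of all genes. In the DH4866 set, 10 rose and 13 fell in the libraries labelled *ZmNF-YA1* OE, with 12.2% and 12.0% of all genes, and 15 rose and 13 fell in DH4866, with 14.0% and 12.9% of all genes. As shares of the genes tested these were 16.7% and 19.2% in *zmnf-ya1*, 14.1% and 17.9% in W22, 10.9% and 23.4% in *ZmNF-YB16* OE, 18.8% and 15.6% in B104, 12.5% and 16.2% in the labelled *ZmNF-YA1* OE libraries and 18.8% and 16.2% in DH4866. The greatest excess over all genes was that of the fallen genes in *ZmNF-YB16* OE. Scaling by library size alone shifted the median of all genes by more than 0.1 log2 in 4 of these contrasts and gave 19 higher and 14 lower in *zmnf-ya1*, 8 and 10 in *ZmNF-YB16* OE, and 18 and 9 in B104.

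**Figure D1:**
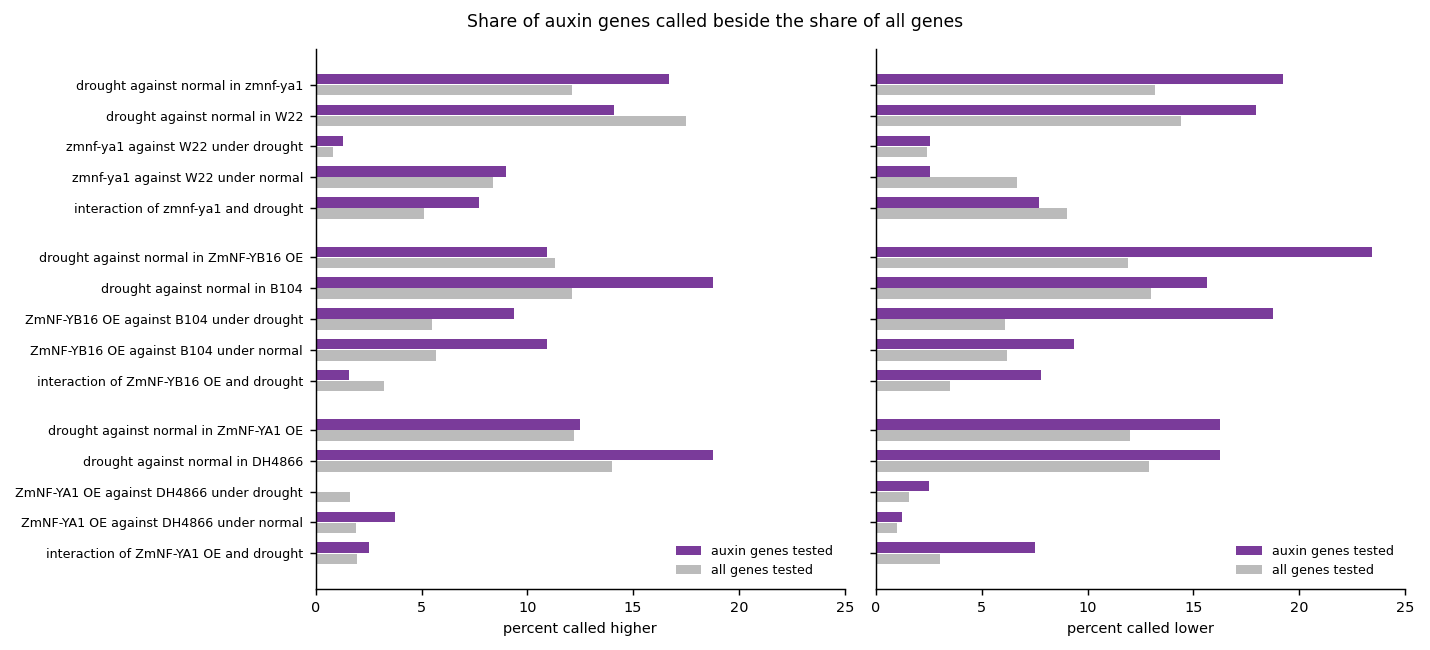
Percent of tested auxin genes (purple) and of all tested genes (grey) called higher (left) and lower (right) in each of the 15 contrasts. The bar for genes lower under drought in ZmNF-YB16 OE reaches 23.4% of the auxin genes, against 11.9% of all genes.

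Of the 60 genes tested in all 3 sets, 27 were called in no inbred, 1 rose under drought in all 3 inbreds and 2 fell in all 3. Of all 19792 genes tested in all 3 sets, 52.1% were called in no inbred, 1.40% rose in all 3 (1.67% of the auxin genes) and 1.06% fell in all 3 (3.33% of the auxin genes). The 1 that rose was *ARGOS9* (GRMZM2G082943), and the 2 that fell were *IAA16* (GRMZM5G864847) and *ARF75* (GRMZM2G133986). The B104 calls of *ARGOS9* and *ARF75* were each kept under 5 of 11 alternatives only. Another 4 (6.67%, against 5.67% of all genes) were called in opposite directions in 2 inbreds. Over the 6 drought contrasts, including the lines, 2 of the 85 genes rose and 3 fell in at least 5 (2.35% and 3.53%, against 0.922% and 0.885% of all genes), and 9 rose in 1 and fell in another (10.6%, against 8.66%).

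**Figure D2:**
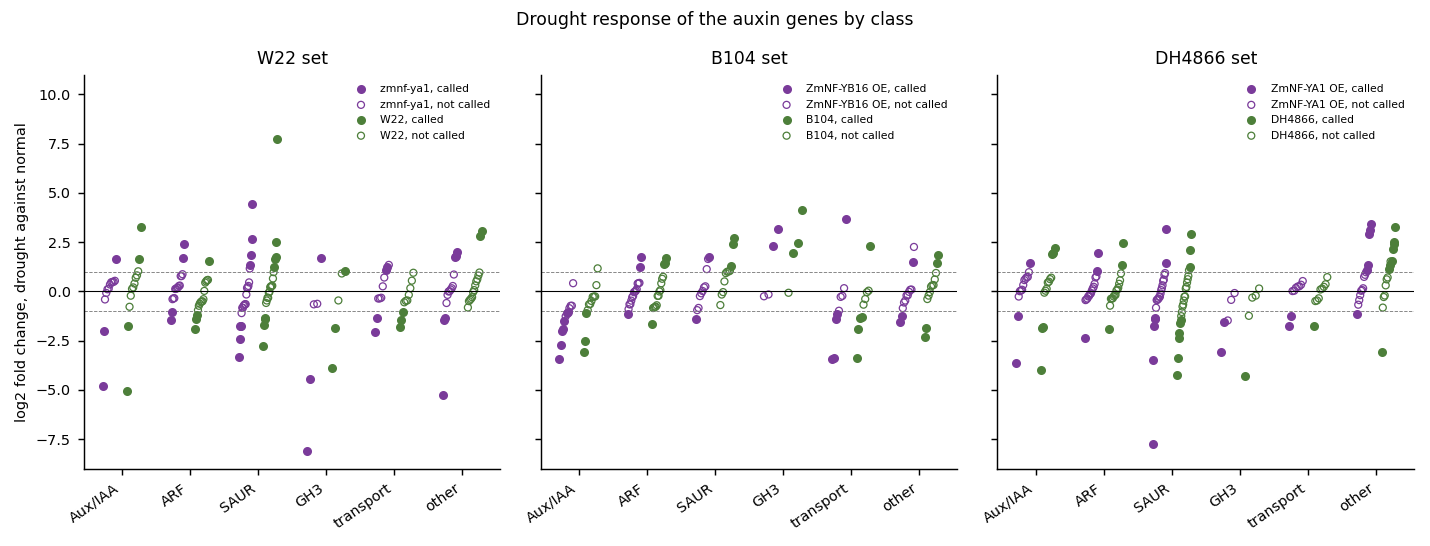
Fitted log2 fold change of drought against normal (y axis) for each tested auxin gene, by class (x axis), with the line in purple and its inbred in green; filled points were called, open points were not, and dashed lines mark 1 and -1. In ZmNF-YB16 OE 7 of 12 Aux/IAA genes were called lower and 0 higher, against 11.9% and 11.3% of all genes. The highest point in W22 and the lowest points in zmnf-ya1 and ZmNF-YA1 OE (the name on the labels) belong to genes with a group at 0 counts. Their height depends on the prior count of the fit.

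The Aux/IAA genes, the repressors of the pathway, fell under drought more often than they rose in the B104 set. In *ZmNF-YB16* OE 7 of 12 tested were called lower and 0 higher, with a median log2 fold change of -1.19 against 0.00 over all genes. In B104 3 of 12 were lower and 0 higher, with a median of -0.56. Of all genes, 11.9% were lower and 11.3% higher in *ZmNF-YB16* OE, and 13.0% and 12.1% in B104. Library size alone gave 5 lower and 0 higher in *ZmNF-YB16* OE, and 2 lower and 1 higher in B104. In the same contrasts the summed C4 leaf markers were lower under drought. Of the 12 Aux/IAA genes tested in the W22 set, 1 rose and 2 fell in *zmnf-ya1* and 2 rose and 2 fell in W22. In the DH4866 set 1 rose and 2 fell in the libraries labelled *ZmNF-YA1* OE and 3 rose and 3 fell in DH4866, of 13 tested. Of all genes, 12.1% to 17.5% rose and 12.0% to 14.4% fell in the drought contrasts of the W22 and DH4866 sets.

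*IAA7* moved in opposite directions by set. The study singled this gene out from these libraries, so its changes are not independent evidence. In the W22 set it had 15.3 and 13.5 CPM in *zmnf-ya1* drought and 4.89 and 4.28 CPM in *zmnf-ya1* normal libraries, and 13.3 and 12.5 CPM in W22 drought and 1.48 and 1.18 CPM in W22 normal libraries. All 4 drought libraries were above all 4 normal ones, and the lowest level was that of W22 under normal conditions. Drought raised it by 1.65 log2 in *zmnf-ya1* (SE 0.13, adjusted p = 1.02e-07) and by 3.27 log2 in W22 (SE 0.15, adjusted p = 5.12e-10). In the DH4866 set it had 19.2 and 18.0 CPM in the libraries labelled *ZmNF-YA1* OE under drought and 7.51 and 6.37 CPM in those under normal conditions, and 18.4 and 19.1 CPM in DH4866 drought and 4.23 and 4.06 CPM in DH4866 normal libraries. The drought libraries were again above the normal ones and DH4866 under normal conditions was lowest, while the drought libraries of the labelled line and of DH4866 overlapped. The log2 changes by drought were 1.42 in the labelled line and 2.18 in DH4866. In the B104 set it had 13.1 and 11.2 CPM in *ZmNF-YB16* OE drought and 32.4 and 35.9 CPM in *ZmNF-YB16* OE normal libraries, and 28.4 and 29.1 CPM in B104 drought and 45.9 and 44.7 CPM in B104 normal libraries. Here the drought libraries were below the normal ones in both genotypes. The fall was called in *ZmNF-YB16* OE (log2 -1.48, SE 0.13, adjusted p = 6.67e-09), but not in B104, where the change was below 1 in size.

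*IAA16* (GRMZM5G864847), the locus of *BARREN INFLORESCENCE4*, a repressor known from maize inflorescence branching, fell under drought in all 6 contrasts. It had 0.803 and 0.569 CPM in *zmnf-ya1* drought and 21.8 and 17.0 CPM in *zmnf-ya1* normal libraries, and 0.281 and 0.509 CPM in W22 drought and 13.0 and 14.0 CPM in W22 normal libraries. It had 1.32 and 0.518 CPM in *ZmNF-YB16* OE drought and 7.85 and 13.2 CPM in *ZmNF-YB16* OE normal libraries, and 1.19 and 0.697 CPM in B104 drought and 7.51 and 8.94 CPM in B104 normal libraries. It had 0.719 and 0.723 CPM under drought and 8.58 and 9.47 CPM under normal conditions in the libraries labelled *ZmNF-YA1* OE, and 0.771 and 0.820 CPM in DH4866 drought and 13.1 and 12.5 CPM in DH4866 normal libraries. The highest drought library had 1.32 CPM and the lowest normal library 7.51 CPM. The log2 changes were -4.81 in *zmnf-ya1*, -5.07 in W22, -3.45 in *ZmNF-YB16* OE, -3.07 in B104, -3.63 in the labelled *ZmNF-YA1* OE libraries and -4.00 in DH4866, and all 6 calls held under each alternative analysis.

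*IAA17*, the most abundant auxin gene, had 62.6 and 59.0 CPM in *ZmNF-YB16* OE drought and 246 and 239 CPM in *ZmNF-YB16* OE normal libraries, and 50.01 and 50.86 CPM in B104 drought and 280 and 302 CPM in B104 normal libraries. The groups did not overlap, and the fall was called in both (log2 -1.99, SE 0.07 in *ZmNF-YB16* OE and -2.52, SE 0.07 in B104). In the 16 libraries of the other sets it lay between 238 and 321 CPM and was not called by drought. *IAA15* (GRMZM2G004696) had 69.6 and 66.3 CPM in *ZmNF-YB16* OE drought and 244 and 268 CPM in *ZmNF-YB16* OE normal libraries, and 158 and 151 CPM in B104 drought and 293 and 303 CPM in B104 normal libraries. It fell in *ZmNF-YB16* OE (log2 -1.91, SE 0.07, adjusted p = 2.69e-15) and stood lower there than in B104 under drought (log2 -1.18, SE 0.07, adjusted p = 3.14e-11).

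*IAA20* (GRMZM2G000158) had 1.66 and 3.62 CPM in *ZmNF-YB16* OE drought and 19.5 and 15.3 CPM in *ZmNF-YB16* OE normal libraries, against 5.95 and 3.66 CPM in B104 drought and 10.6 and 9.60 CPM in B104 normal libraries. It fell in both genotypes of the B104 set (log2 -2.73, SE 0.30 and -1.08, SE 0.30) but rose in DH4866 (log2 1.95, SE 0.48, adjusted p = 0.00278), where all libraries had at most 22 counts. *IAA9* (GRMZM2G030465) fell under drought in *zmnf-ya1* (log2 -2.02, SE 0.27), W22 (log2 -1.76, SE 0.26), the libraries labelled *ZmNF-YA1* OE (log2 -1.26, SE 0.24) and DH4866 (log2 -1.88, SE 0.28). *IAA24* (GRMZM2G115357) rose in both of the other inbreds, with 26.0 and 26.1 CPM in W22 drought and 8.81 and 7.61 CPM in W22 normal libraries (log2 1.66, SE 0.10), and 24.2 and 23.1 CPM in DH4866 drought and 6.57 and 5.99 CPM in DH4866 normal libraries (log2 1.91, SE 0.09). In B104 it had 18.2 and 17.4 CPM under drought and 16.7 and 10.9 CPM under normal conditions and was not called.

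**Figure D3:**
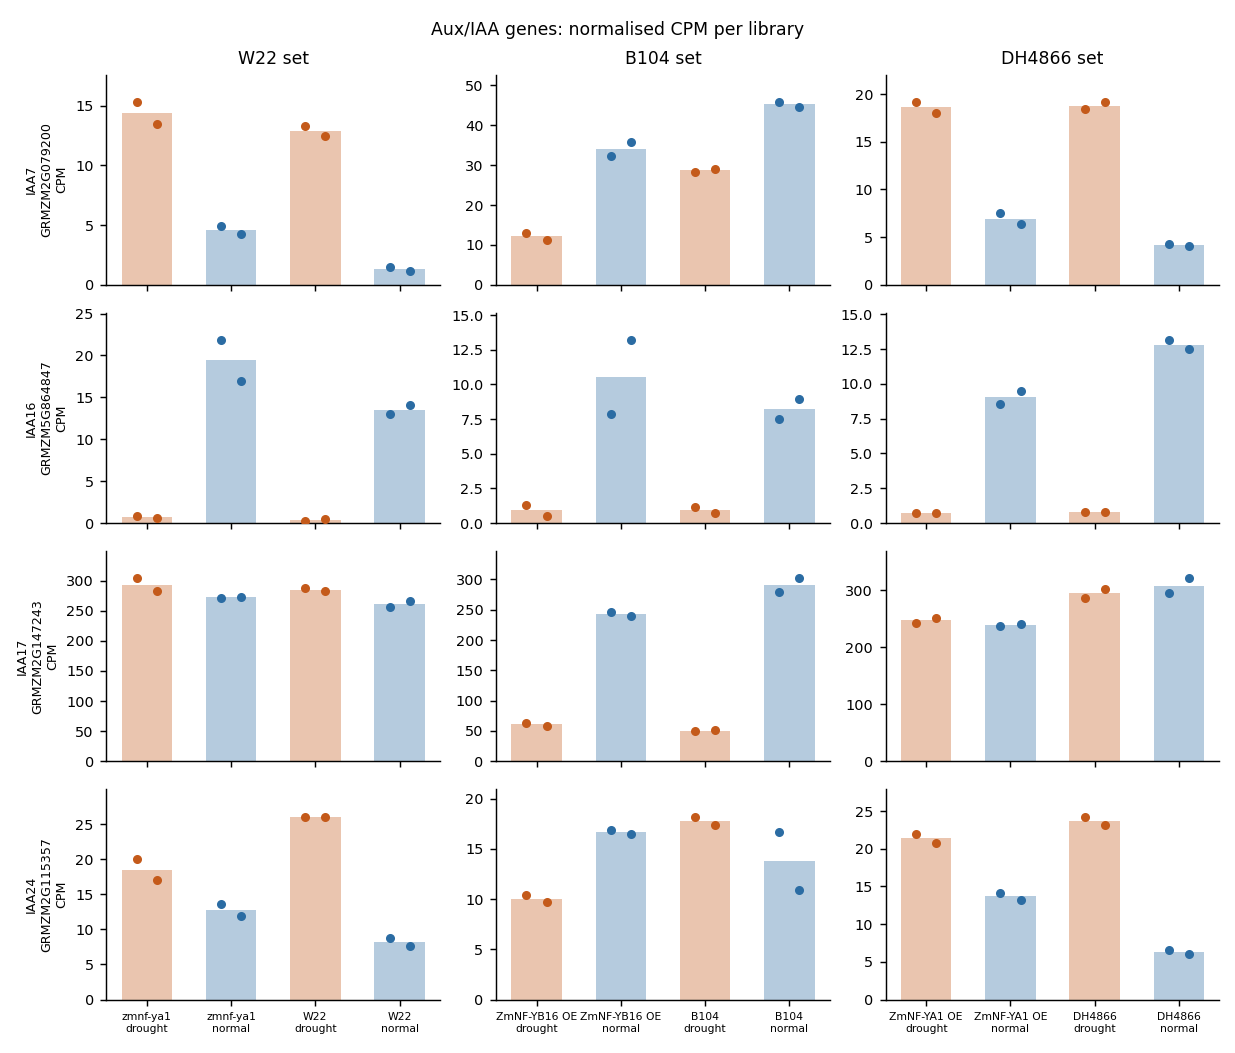
Normalised CPM (y axes, each from 0) of 4 Aux/IAA genes in the 3 sets; dots are libraries, bars are means of the 2 libraries, drought is orange and normal is blue, and ZmNF-YA1 OE is the name on the labels. IAA16 is at or below 1.32 CPM in all 12 drought libraries, and IAA17 is lower under drought in the B104 set alone.

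Of the 16 tested ARF genes, the transcription factors of the pathway, 3 or 4 were called by drought in each genotype. Under drought 2 rose and 2 fell in *zmnf-ya1*, 1 rose and 3 fell in W22, 2 rose and 1 fell in *ZmNF-YB16* OE, 3 rose and 1 fell in B104, and 2 rose and 1 fell in each genotype of the DH4866 set. Of all genes, 11.3% to 17.5% were called higher and 11.9% to 14.4% lower in these contrasts. Of the 3 most abundant, GRMZM2G378580 alone was called. It had 132 and 122 CPM in *ZmNF-YB16* OE drought and 291 and 280 CPM in *ZmNF-YB16* OE normal libraries (log2 -1.17, SE 0.06, adjusted p = 1.27e-12).

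*ARF5* (GRMZM2G102845) rose in 5 of 6 drought contrasts. It had 3.21 and 2.75 CPM in *zmnf-ya1* drought and 0.909 CPM in both *zmnf-ya1* normal libraries, and 2.95 and 2.87 CPM in W22 drought and 1.70 and 2.24 CPM in W22 normal libraries. Drought libraries were higher in both genotypes, but the change passed in *zmnf-ya1* only (log2 1.71, SE 0.25, adjusted p = 5.64e-05). It rose by 1.23 log2 in *ZmNF-YB16* OE (SE 0.25), 1.41 in B104 (SE 0.29), 1.02 in the libraries labelled *ZmNF-YA1* OE (SE 0.21) and 1.33 in DH4866 (SE 0.20). *ARF75* (GRMZM2G133986) fell in 5 of 6, the exception being *ZmNF-YB16* OE. It was low throughout, with 5 and 10 counts in the labelled *ZmNF-YA1* OE drought libraries and 33 and 50 in those under normal conditions, and 7 and 11 counts in DH4866 drought and 32 and 36 in DH4866 normal libraries (log2 -2.38, SE 0.39 and -1.89, SE 0.38). *ARF6* (GRMZM2G028980) rose under drought in *zmnf-ya1* (log2 2.41, SE 0.25), W22 (log2 1.54, SE 0.22), the labelled *ZmNF-YA1* OE libraries (log2 1.93, SE 0.21) and DH4866 (log2 2.44, SE 0.24), but not in the B104 set.

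The GH3 genes were all described as enzymes that join auxin to amino acids, some of them as probable only. More of them were called higher than lower under drought in the B104 set, and more lower than higher in the other sets. In the B104 set 2 of 4 tested rose in *ZmNF-YB16* OE and 3 of 4 in B104, with 11.3% and 12.1% of all genes, and 0 fell. The other 2 in *ZmNF-YB16* OE had fitted changes below 0. In the W22 set 1 rose and 2 fell in each genotype, and in the DH4866 set 2 fell in the libraries labelled *ZmNF-YA1* OE and 1 in DH4866, with 0 higher, of 5 tested. Of all genes, 12.1% to 17.5% rose and 12.0% to 14.4% fell in the drought contrasts of the W22 and DH4866 sets. *GH3.13* (GRMZM2G410567) showed both directions. It had 7.78 and 5.87 CPM in *ZmNF-YB16* OE drought and 1.72 and 0.925 CPM in *ZmNF-YB16* OE normal libraries, and 4.59 and 5.05 CPM in B104 drought and 0.209 and 0.331 CPM in B104 normal libraries. The B104 normal value rests on 1 count in each library, which gives an 18.8-fold rise with a 95% counting interval of 4.98 to 159. In DH4866 it had 0.0964 and 0.338 CPM under drought and 4.96 and 3.77 CPM under normal conditions, the reverse order (log2 -4.29, SE 0.45, adjusted p = 9.87e-07). In the W22 set it also fell, by 4.44 log2 in *zmnf-ya1* (SE 0.55) and by 1.87 log2 in W22 (SE 0.43).

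GRMZM2G378106, the most abundant GH3 gene, had 10.3 and 10.7 CPM in *ZmNF-YB16* OE drought and 1.72 and 0.463 CPM in *ZmNF-YB16* OE normal libraries, and 14.1 and 18.6 CPM in B104 drought and 2.50 and 3.64 CPM in B104 normal libraries. It rose in both (log2 3.16, SE 0.38 and 2.46, SE 0.31) and was called by drought in no other genotype. *GH3.12* (GRMZM2G060991) had 0 counts in both *zmnf-ya1* drought libraries and 27 and 31 in *zmnf-ya1* normal libraries, at least 11.2-fold lower against a floor of 3 counts per library. In W22 it had 2 and 0 counts under drought and 22 and 14 under normal conditions, a 16.4-fold fall with a counting interval of 4.21 to 140. It also fell in the libraries labelled *ZmNF-YA1* OE (log2 -1.54, SE 0.45, adjusted p = 0.0091). *GH3.8* (GRMZM2G053338) passed in W22 (log2 1.05, SE 0.43, adjusted p = 0.0415), a call kept under 1 of 10 alternatives, and in B104 (log2 1.92, SE 0.58, adjusted p = 0.00903). *GH3.11* (GRMZM2G414460) rose in *zmnf-ya1* (log2 1.67, SE 0.33, adjusted p = 0.000683).

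The SAUR genes, small early-response genes of which several act on cell expansion in Arabidopsis, were the largest class and the least often detected, since 21, 11 and 22 of 33 were tested in the W22, B104 and DH4866 sets. Under drought 4 rose and 4 fell in *zmnf-ya1*, 5 rose and 4 fell in W22, 1 rose and 1 fell in *ZmNF-YB16* OE, 3 rose and 0 fell in B104, 2 rose and 5 fell in the libraries labelled *ZmNF-YA1* OE, and 3 rose and 6 fell in DH4866. As shares of the SAUR genes tested, 9.09% to 27.3% rose and 0% to 27.3% fell. Of all genes, 11.3% to 17.5% rose and 11.9% to 14.4% fell in these contrasts. *SAUR11* (GRMZM2G425072) was called in both directions. It had 0.815 and 1.11 CPM in the labelled *ZmNF-YA1* OE drought libraries and 12.2 and 9.20 CPM in those under normal conditions, and 0.386 and 0.482 CPM in DH4866 drought and 8.86 and 8.02 CPM in DH4866 normal libraries. These groups were far apart (log2 -3.47, SE 0.21 and -4.26, SE 0.26). It fell in *zmnf-ya1* (log2 -2.41, SE 0.22) and W22 (log2 -1.69, SE 0.22) as well, but rose in B104, with 11.4 and 10.3 CPM under drought and 4.17 and 4.63 CPM under normal conditions (log2 1.31, SE 0.28).

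*SAUR33* (GRMZM2G400156) also reversed. It had 2.60 and 2.42 CPM in *zmnf-ya1* drought and 0.568 and 0.214 CPM in *zmnf-ya1* normal libraries, and 1.88 and 1.62 CPM in W22 drought and 0.466 and 0.634 CPM in W22 normal libraries (log2 2.68, SE 0.36 and 1.66, SE 0.34). In DH4866 it had 1.01 and 1.35 CPM under drought and 3.75 and 3.44 CPM under normal conditions, a fall of 1.60 log2 (SE 0.22). *SAUR30* (GRMZM2G095839) had 45 and 37 counts in *zmnf-ya1* drought and 3 and 0 in *zmnf-ya1* normal libraries, a 23.5-fold rise with a counting interval of 7.76 to 116. In W22 it had 20 and 33 counts under drought and 0 in both libraries under normal conditions, at least 9.72-fold higher. *SAUR20* (GRMZM2G456644) rose in all 4 contrasts in which it was tested, among them the libraries labelled *ZmNF-YA1* OE (log2 3.15, SE 0.47) and DH4866 (log2 2.91, SE 0.46). The 15A-like SAUR gene GRMZM2G154332 rose in B104 alone. It had 27.7 and 20.9 CPM in *ZmNF-YB16* OE drought and 28.5 and 28.9 CPM in *ZmNF-YB16* OE normal libraries, against 124 and 121 CPM in B104 drought and 23.97 and 21.52 CPM in B104 normal libraries (log2 2.41 in B104, SE 0.11, adjusted p = 1.08e-13). *SAUR16* (GRMZM2G332390) was almost confined to the B104 set, with at most 6 counts in any library of the other sets. It had 17.7 and 18.3 CPM in *ZmNF-YB16* OE drought and 4.98 and 5.78 CPM in *ZmNF-YB16* OE normal libraries, and 47.0 and 49.1 CPM in B104 drought and 23.97 and 27.15 CPM in B104 normal libraries. The rise by drought was called in *ZmNF-YB16* OE (log2 1.75, SE 0.18).

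Transport genes fell under drought more often than they rose in the B104 set, with 4 lower and 1 higher of 9 tested in *ZmNF-YB16* OE and the same counts in B104. These were 44.4% and 11.1% of the transport genes tested. Of all genes, 11.9% were lower and 11.3% higher in *ZmNF-YB16* OE, and 13.0% and 12.1% in B104. Library size alone gave 3 lower and 1 higher in *ZmNF-YB16* OE and left the counts in B104 as they were. In the W22 set 2 rose and 2 fell in *zmnf-ya1* and 0 rose and 3 fell in W22, of 10 tested. In the DH4866 set 2 fell in the libraries labelled *ZmNF-YA1* OE and 1 in DH4866, with 0 higher, of 9 tested. Of all genes, 12.1% to 17.5% rose and 12.0% to 14.4% fell in the drought contrasts of the W22 and DH4866 sets. *PIN5c* (GRMZM2G040911) fell in 5 of 6 contrasts. It had 1.32 and 2.42 CPM in *ZmNF-YB16* OE drought and 18.0 and 21.8 CPM in *ZmNF-YB16* OE normal libraries, and 1.87 and 0.523 CPM in B104 drought and 12.7 and 13.2 CPM in B104 normal libraries. The groups did not overlap in either genotype (log2 -3.39, SE 0.31 and -3.40, SE 0.37). It fell by 2.08 log2 in *zmnf-ya1* (SE 0.39), 1.46 in W22 (SE 0.37) and 1.73 in the libraries labelled *ZmNF-YA1* OE (SE 0.26). In DH4866 it had 1.21 and 0.820 CPM under drought and 1.26 and 1.32 CPM under normal conditions and was not called.

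The efflux carrier 1-like gene GRMZM2G149184 had the largest log2 fold change among the transport genes and went both ways. It had 99.9 and 82.7 CPM in *ZmNF-YB16* OE drought and 6.51 and 8.10 CPM in *ZmNF-YB16* OE normal libraries, and 5.44 and 6.10 CPM in B104 drought and 1.46 and 0.662 CPM in B104 normal libraries. No other library of the set exceeded 8.10 CPM. Drought raised it by 3.65 log2 in *ZmNF-YB16* OE (SE 0.15, adjusted p = 3.05e-14) and by 2.30 log2 in B104 (SE 0.40, adjusted p = 7.18e-05). It rose by 1.08 log2 in *zmnf-ya1* (SE 0.19) and fell in the libraries labelled *ZmNF-YA1* OE (log2 -1.25, SE 0.14) and in DH4866 (log2 -1.74, SE 0.15). The gene described as efflux carrier 1c (GRMZM2G098643), *PIN1a* in RefSeq, had 2 counts in each *ZmNF-YB16* OE drought library and 24 and 13 in *ZmNF-YB16* OE normal libraries, an 11.5-fold fall with a counting interval of 4.12 to 44.3. It fell in B104 (log2 -1.33, SE 0.39) and W22 (log2 -1.04, SE 0.21) too. *PIN5a* fell in B104 (log2 -1.29, SE 0.17), and the AUX1-type influx carrier gene GRMZM2G127949 fell in *ZmNF-YB16* OE (log2 -1.17, SE 0.11). GRMZM2G175983 shares a RefSeq entry with *PIN5a* but is counted apart here. It was tested in 6 drought contrasts and called in 0.

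**Figure D4:**
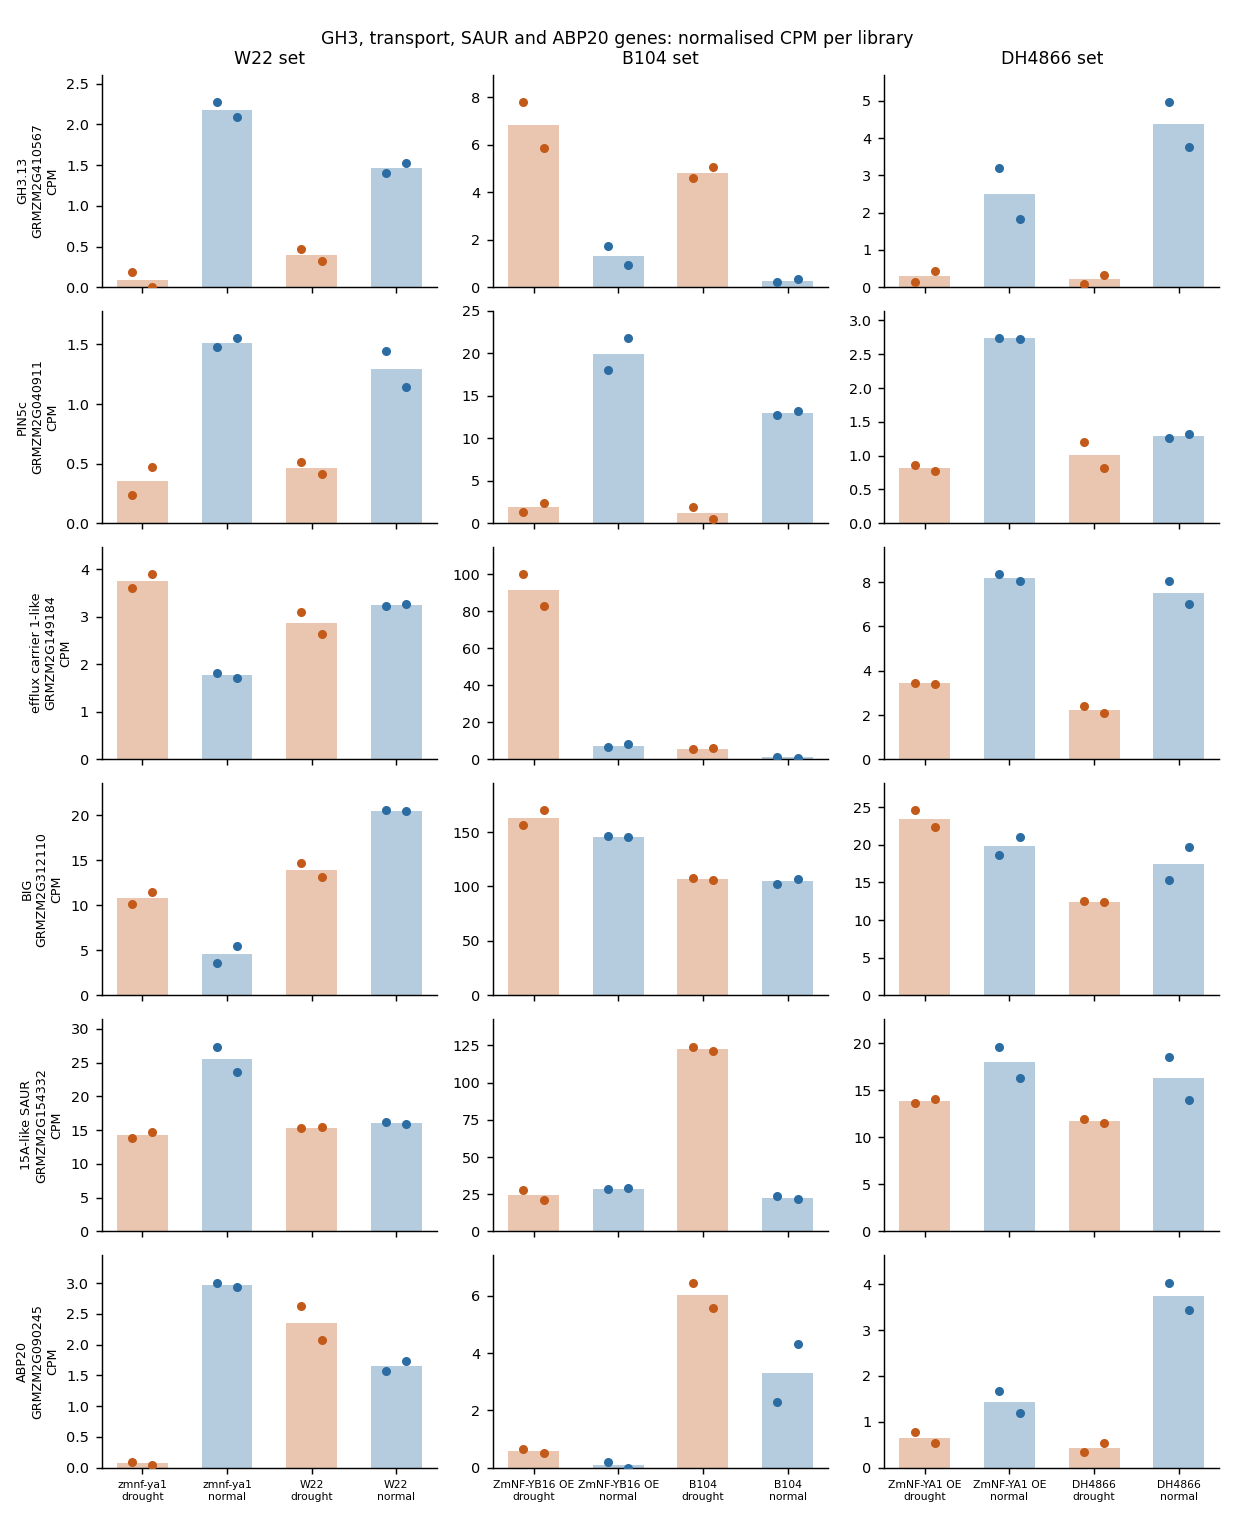
Normalised CPM (y axes, each from 0) of GH3.13, 3 transport genes, the 15A-like SAUR gene and ABP20 in the 3 sets; dots are libraries, bars are means of the 2 libraries, drought is orange and normal is blue, and ZmNF-YA1 OE is the name on the labels. The efflux carrier 1-like gene reaches 82.7 and 99.9 CPM in the ZmNF-YB16 OE drought libraries alone, and the 15A-like gene 124 and 121 CPM in the B104 drought libraries alone.

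Of the 17 other genes, 14, 12 and 15 were tested in the W22, B104 and DH4866 sets. Under drought 3 rose and 3 fell in *zmnf-ya1*, 2 rose and 0 fell in W22, and 1 rose and 2 fell in *ZmNF-YB16* OE. In B104 2 rose and 2 fell, in the libraries labelled *ZmNF-YA1* OE 5 rose and 1 fell, and in DH4866 7 rose and 1 fell. Of all genes, 11.3% to 17.5% rose and 11.9% to 14.4% fell in these contrasts. Those that rose included 2 of 4 ARGOS genes, a family that promotes organ growth in Arabidopsis, and the *AXR4* gene. The other 2 ARGOS genes were tested in no set. *ARGOS9* rose in 5 of 6 contrasts, on few counts. It had 13 and 14 counts in W22 drought and 0 and 4 in W22 normal libraries, and 24 and 13 counts in B104 drought and 6 and 3 in B104 normal libraries. In DH4866 it had 15 and 9 counts under drought and 1 and 3 under normal conditions, a 6.04-fold rise with a counting interval of 2.08 to 23.9. *ZmNF-YB16* OE was the exception, with 3 and 7 counts under drought and 5 and 7 under normal conditions. *ARGOS4* (GRMZM2G066029) rose in *zmnf-ya1* (log2 1.98, SE 0.54), in W22 by 9.36-fold with an interval of 2.22 to 83.5, and in the libraries labelled *ZmNF-YA1* OE by 12.0-fold with an interval of 2.97 to 105. The *AXR4* gene GRMZM2G159854, whose Arabidopsis counterpart places AUX1 at the cell surface, rose in the DH4866 set, with 3.31 and 2.75 CPM under drought and 0.464 and 0.228 CPM under normal conditions in the labelled *ZmNF-YA1* OE libraries, and 2.02 and 1.78 CPM in DH4866 drought and 0.195 and 0.189 CPM in DH4866 normal libraries (log2 3.11, SE 0.32 and 3.27, SE 0.39).

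The gene GRMZM2G005146, of a family called auxin-repressed or dormancy-associated, fell under drought in *zmnf-ya1* (log2 -1.34, SE 0.21) and rose in DH4866, with 12.2 and 12.1 CPM under drought and 3.12 and 2.41 CPM under normal conditions (log2 2.14, SE 0.14). In the B104 set it had 149 to 232 CPM and was not called by drought. Of the 3 AIR12-like genes, a type that codes for membrane cytochromes in Arabidopsis, 2 were tested in the B104 set and both fell there. Of all genes, 11.9% fell in *ZmNF-YB16* OE and 13.0% in B104. GRMZM2G065244 had 55.8 and 61.4 CPM in *ZmNF-YB16* OE drought and 176 and 171 CPM in *ZmNF-YB16* OE normal libraries, and 57.1 and 58.7 CPM in B104 drought and 217 and 205 CPM in B104 normal libraries (log2 -1.56, SE 0.07 and -1.87, SE 0.07). GRMZM2G154578 fell by 1.24 log2 in *ZmNF-YB16* OE (SE 0.25) and by 2.29 log2 in B104 (SE 0.20) but rose by 1.13 log2 in DH4866 (SE 0.18). *ABP1* (GRMZM2G116204), the auxin-binding protein first described in maize, was called in no contrast.

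The contrast of *zmnf-ya1* with W22 asks whether auxin genes differed in leaves of the insertion mutant. Under normal conditions 7 were higher and 2 lower in *zmnf-ya1*, against 8.40% and 6.66% of all genes tested, and under drought 1 was higher and 2 lower, against 0.807% and 2.43%. Library size alone gave 3 higher and 10 lower under normal conditions, with a shift of -0.40 log2 in the median of all genes. *IAA7* was higher in *zmnf-ya1* under normal conditions (log2 1.77, SE 0.19, adjusted p = 4.55e-06). *BIG* (GRMZM2G312110), which codes for a large protein of auxin efflux in Arabidopsis, had 3.64 and 5.46 CPM in *zmnf-ya1* and 20.5 and 20.4 CPM in W22 under normal conditions. It was lower in *zmnf-ya1* with no overlap (log2 -2.16, SE 0.14, adjusted p = 5.84e-08), and *ARF5* was lower too (log2 -1.11, SE 0.26, adjusted p = 0.00304). The ARF class had a median of -0.53 log2 in that contrast, with 1 of 16 called lower, and 7 of 16 when scaled by library size alone. The others higher under normal conditions were GRMZM2G005146 (log2 1.44, SE 0.21), *SAUR37* (GRMZM2G045243, log2 1.57, SE 0.37), *GH3.12* (log2 1.06, SE 0.39), GRMZM2G154578 (log2 1.00, SE 0.12), *ARGOS4*, and the AIR12-like gene AC217977.3_FG001 (log2 1.33). The calls of *GH3.12* and *ARGOS4* were each kept under 2 of 10 alternatives, and that of GRMZM2G154578 under 4 of 11.

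Under drought, *ABP20* (GRMZM2G090245), a germin-like protein named for auxin binding in peach, was lower in the mutant. It had 2 and 1 counts in *zmnf-ya1* drought and 56 and 45 in W22 drought libraries, a 33.2-fold difference with a counting interval of 11.02 to 163.4. Under normal conditions it had 53 and 55 counts in *zmnf-ya1* and 37 and 41 in W22, so the low level was that of *zmnf-ya1* under drought. The identifier of *ABP20* stands under more than 1 RefSeq entry, 1 with the synonym *ALDH12*, so its name rests on the description. *SAUR14* (GRMZM2G447151) was lower in *zmnf-ya1* under drought, with 0.520 and 1.18 CPM against 2.204 and 2.593 CPM in W22 (log2 -1.49, SE 0.34, adjusted p = 0.0066). *SAUR25* (GRMZM2G465383) was higher, with 11.9 and 9.72 CPM in *zmnf-ya1* and 6.10 and 4.31 CPM in W22 (log2 1.06, SE 0.18, adjusted p = 0.00102).

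The contrast of *ZmNF-YB16* OE with B104 gave more auxin calls. Under normal conditions 7 were higher and 6 lower in *ZmNF-YB16* OE, against 5.69% and 6.19% of all genes tested, and under drought 6 were higher and 12 lower, against 5.48% and 6.10%. The 12 lower genes under drought were 18.8% of the 64 tested. They included 4 of 12 Aux/IAA genes, *IAA7* (log2 -1.24, SE 0.13), *IAA15*, *IAA4* (GRMZM2G074742, log2 -1.99, SE 0.38) and *IAA9* (log2 -2.44, SE 0.60), while 0 Aux/IAA genes were higher. The Aux/IAA median was -0.85 log2 under drought and 0.07 under normal conditions, where *IAA4* (log2 -1.78, SE 0.35) and *IAA13* (GRMZM2G077356, 4.68-fold, counting interval 1.85 to 14.1) were lower.

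Several genes differed in both conditions. *ARF15* (GRMZM2G030710) had 65.1 and 58.5 CPM in *ZmNF-YB16* OE and 19.1 and 16.9 CPM in B104 under drought, and 45.6 and 47.4 CPM in *ZmNF-YB16* OE and 10.8 and 12.6 CPM in B104 under normal conditions. It was higher in *ZmNF-YB16* OE in both (log2 1.78, SE 0.11 and 2.01, SE 0.14), without overlap. *SAUR14* had 6.13 and 6.04 CPM in *ZmNF-YB16* OE and 2.04 and 0.871 CPM in B104 under drought, and 15.1 and 17.1 CPM in *ZmNF-YB16* OE and 1.04 and 0.993 CPM in B104 under normal conditions (log2 2.04, SE 0.36 and 3.94, SE 0.38). The efflux carrier 1-like gene was higher as well (log2 3.98, SE 0.15 under drought and 2.63, SE 0.40 under normal conditions), as was the *AXR4* gene (log2 1.54, SE 0.38 and 1.99, SE 0.44), and *GH3.13* was higher under normal conditions by 5.33-fold with an interval of 1.21 to 48.6. Lower in both conditions were *ARF6* (log2 -1.03, SE 0.21 and -1.43, SE 0.25), *SAUR16* (log2 -1.41, SE 0.12 and -2.24, SE 0.18), and *ABP20*, which had 4 and 3 counts in *ZmNF-YB16* OE drought and 38 and 32 in B104 drought libraries (log2 -3.30, SE 0.51), and 1 and 0 counts in *ZmNF-YB16* OE normal and 11 and 13 in B104 normal libraries. Under drought alone the 15A-like SAUR gene was lower (log2 -2.33, SE 0.10), as were *GH3.8* (log2 -1.998, SE 0.53), *ARGOS9* (log2 -1.88, SE 0.57) and GRMZM2G098643, which had 2 counts in each *ZmNF-YB16* OE and 11 and 20 in B104 libraries, a 7.89-fold difference with an interval of 2.79 to 30.8. *PIN5a* was higher under drought (log2 1.05, SE 0.16). Under normal conditions *ARF8* (GRMZM2G081406) was higher, with 9.77 and 9.95 CPM in *ZmNF-YB16* OE and 2.29 and 0.331 CPM in B104 (log2 2.68, SE 0.40), and GRMZM2G154578 was lower (log2 -1.59, SE 0.19).

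Between the libraries labelled *ZmNF-YA1* OE and DH4866 few auxin genes differed. Under normal conditions 3 were higher and 1 lower in the labelled line, against 1.92% and 1.01% of all genes tested, and under drought 0 were higher and 2 lower, against 1.60% and 1.58%. At an unadjusted p below 0.05, 14 were higher and 17 lower under drought by edgeR, and DESeq2 called 0 higher as well, with 5 higher at an unadjusted p below 0.05. Library size alone gave 1 higher and 2 lower. *IAA24* was higher in the labelled line under normal conditions, with 14.2 and 13.3 CPM against 6.57 and 5.99 CPM in DH4866 (log2 1.13, SE 0.10, adjusted p = 2.52e-06). GRMZM2G154578 (log2 1.12, SE 0.18) and *PIN5c* (log2 1.08, SE 0.23) were higher too, and *ABP20* was lower (log2 -1.39, SE 0.24). Under drought GRMZM2G005146 was lower, with 4.75 and 4.82 CPM in the labelled line and 12.2 and 12.1 CPM in DH4866 (log2 -1.34, SE 0.12, adjusted p = 4.33e-06). *SAUR55* (GRMZM2G343360) was lower under drought, with 0 counts in both libraries of the labelled line and 6 and 5 in DH4866, at least 1.84-fold against the floor.

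The interaction of line and drought tests whether the drought response of a line differed from that of its inbred. It was called for 6 auxin genes higher and 6 lower in the W22 set, against 5.12% and 9.02% of all genes, 1 higher and 5 lower in the B104 set, against 3.23% and 3.51%, and 2 higher and 6 lower in the DH4866 set, against 1.94% and 3.04%. Library size alone gave 16 higher and 4 lower in the W22 set. Of the 16 ARF genes there, 3 were called higher, and 8 when scaled by library size alone. Over the 3 sets 17 auxin genes were called in 1 set, 3 in 2 sets and 1 in all 3. The same count over all genes was not made, so how common such sharing is among them is not known. The 1 in all 3 was *IAA24*, with lower values each time. Its drought response was 1.13 log2 below that of the inbred in *zmnf-ya1* (log2 -1.13, SE 0.15, adjusted p = 6.7e-05), with 19.99 and 17.06 CPM in *zmnf-ya1* drought and 13.6 and 12.0 CPM in *zmnf-ya1* normal libraries. It was -1.04 log2 in *ZmNF-YB16* OE (SE 0.26, adjusted p = 0.00793), with 10.4 and 9.67 CPM under drought and 16.9 and 16.4 CPM under normal conditions. It was -1.27 log2 in the libraries labelled *ZmNF-YA1* OE (SE 0.13, adjusted p = 1.03e-05), with 22.01 and 20.82 CPM under drought and 14.2 and 13.3 CPM under normal conditions. In the W22 and DH4866 sets drought raised *IAA24* in the inbred and less in the line, and in the B104 set it was lower under drought in the line without a call.

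**Figure D5:**
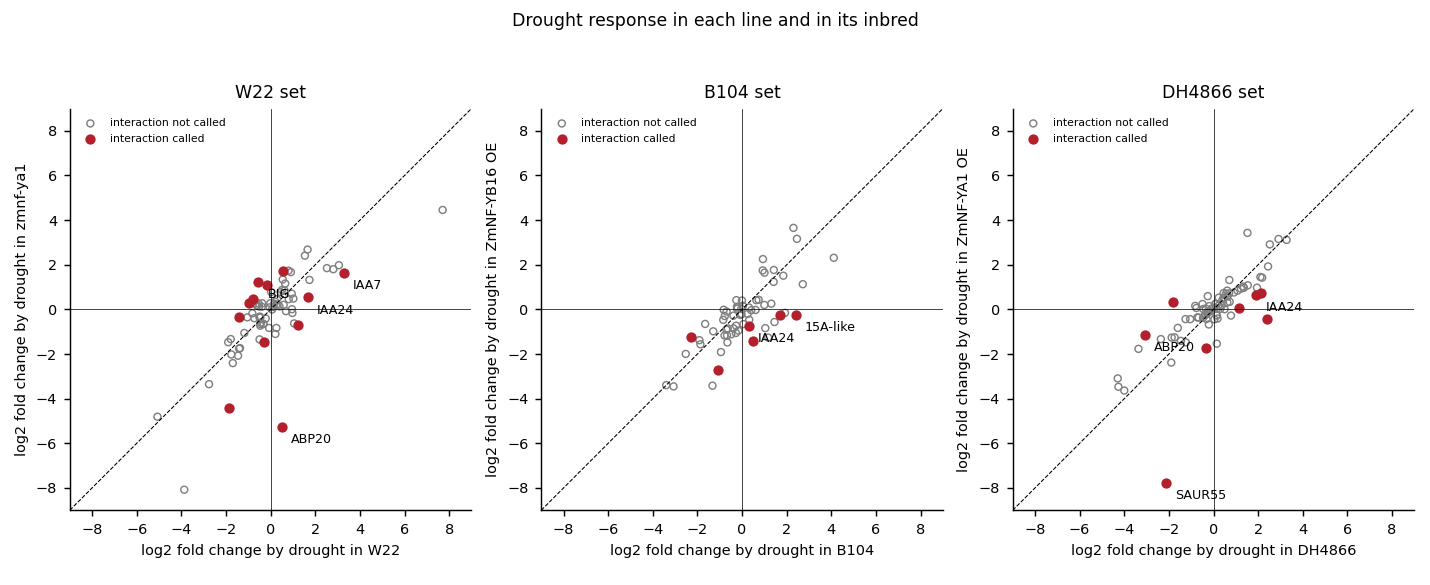
Log2 fold change by drought of each tested auxin gene in the line (y axis) and in its inbred (x axis) for the 3 sets; red points have a called interaction, grey open points do not, and the dashed line marks equal change. IAA24 lies below the line of equal change in all 3 panels; the points of SAUR55 and of ABP20 in zmnf-ya1 rest on drought libraries with at most 2 counts, where the height depends on the prior count of the fit. ZmNF-YA1 OE is the name on the labels.

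A list of 21 genes outside the rule was also described, of which 18, 14 and 19 were tested in the W22, B104 and DH4866 sets. By description alone it held 10 genes of auxin synthesis, 3 of conjugate hydrolysis, 4 of reception and 3 of transport. It also held 1 gene described as an AUX/IAA transcription factor (GRMZM2G079957). In *ZmNF-YB16* OE this gene is among those counted lower by drought and those lower than in B104 under drought. Under drought 2 were higher and 5 lower in *zmnf-ya1*, 3 and 3 in W22, 0 and 3 in *ZmNF-YB16* OE, 0 and 4 in B104, 2 and 3 in the libraries labelled *ZmNF-YA1* OE, and 1 and 2 in DH4866, where 11.3% to 17.5% of all genes were called higher and 11.9% to 14.4% lower. In *zmnf-ya1* against W22 4 were higher and 0 lower under normal conditions, against 8.40% and 6.66% of all genes, and 0 were called under drought. In *ZmNF-YB16* OE against B104 1 was higher and 2 lower under normal conditions, against 5.69% and 6.19% of all genes, and 2 and 2 under drought, against 5.48% and 6.10%. In the libraries labelled *ZmNF-YA1* OE against DH4866 0 were called under normal conditions, and 0 were higher and 1 lower under drought, against 1.60% and 1.58% of all genes. The genes named below from this list were not chosen by the rule for named genes. Of 8 synthesis genes tested in the W22 set, 2 rose and 2 fell under drought in *zmnf-ya1*, and 1 rose and 2 fell in W22. None rose in the other sets, where 1 of 6 fell in *ZmNF-YB16* OE, 3 of 6 in B104, 3 of 8 in the labelled *ZmNF-YA1* OE libraries and 2 of 8 in DH4866. A gene described as indole-3-acetaldehyde oxidase-like (GRMZM2G083186) was lower under drought in all 6 contrasts. Whether this gene acts in auxin synthesis was not tested. It had 0 counts in the 4 drought libraries of the W22 set, with 51 and 55 counts in *zmnf-ya1* and 125 and 148 in W22 under normal conditions. It had 20.2 and 19.5 CPM in *ZmNF-YB16* OE drought and 46.5 and 45.1 CPM in *ZmNF-YB16* OE normal libraries, and 14.97 and 14.98 CPM in B104 drought and 47.3 and 46.7 CPM in B104 normal libraries. A TIR1-like receptor gene (GRMZM2G135978) fell under drought in *ZmNF-YB16* OE (log2 -1.06, SE 0.10) and B104 (log2 -1.40, SE 0.11). The IAA-amino acid hydrolase gene GRMZM2G476538, whose enzyme type frees auxin from its conjugates, was higher in *zmnf-ya1* than in W22 under normal conditions, with 319 and 271 CPM against 144 and 135 CPM (log2 1.08, SE 0.08), and higher in *ZmNF-YB16* OE than in B104 under drought, with 219 and 208 CPM against 83.7 and 77.3 CPM (log2 1.41, SE 0.07).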

How the data were processed

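RNA-seq of 24 leaf libraries was used, with groups and replicate numbers taken from the sample labels. The authors deposited expected counts, estimated per gene with RSEM after filtering with SOAPnuke and alignment with Bowtie2 to the B73 V3 genes. The authors also deposited FPKM, which scales these counts by transcript length and mapped fragments. The tables leave out genes below 0.01 FPKM, which were set to 0 in that library. Expected counts were rounded. RSEM divides reads shared by paralogs, and a B104 set identifier that pools clone genes left 2 auxin genes unmatched there (AC193767.3_FG003 and AC217977.3_FG001). The authors' differential expression results were not used.

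Each set was fitted alone in R 4.3.3 with edgeR 4.0.16 (filterByExpr by group, TMM, glmQLFit and glmQLFTest, 4 groups), with Benjamini-Hochberg adjustment over all 24159, 21970 and 24604 genes tested. CPM are counts scaled to the TMM-adjusted library size. SE is the log2 fold change divided by the root of its F value. Replicates differed by more than counting noise, but whether they came from separate pots or plots is not given, so p-values measure only the spread between these libraries. Exact permutation of 2 against 2 libraries cannot go below p = 0.333, and no such test was used. Groups with at most 3 counts in each library were compared by summed counts with exact 95% intervals, or at 0 against a floor of 3 counts per library. These cover counting error only. Alternatives used DESeq2 1.42.0, limma 3.58.1 on log2(FPKM + 1), other scalings, no filter, an adjusted p of at most 0.001, a replicate block and each library left out.

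The auxin genes, the classes, the pathway list and the rule for named genes were chosen with earlier results of these data known. Named were IAA7, the 3 members of each class with the highest mean FPKM, the 3 called members with the largest rise and fall in each contrast whose groups did not overlap, members called alike in at least 5 of 6 drought contrasts or oppositely in 2, and all called members of classes with at most 5 tested. AC217977.3_FG001 was named outside the rule, after its values were seen. The genes named from the pathway list were also outside the rule. The 72 genes with an entry in RefSeq (Zm-B73-REFERENCE-NAM-5.0, another build) were matched for names only, and no coordinates or sequences are given. Figures were drawn with matplotlib 3.10.9.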

Additional observations from a re-analysis of the deposited data

Results flagged for a closer look

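The drought response of the line differed from that of its inbred, by the interaction term of the edgeR fit, for 23 pairs of gene and set among the named auxin genes. Values are the log2 difference, line minus inbred. In the W22 set it was higher in *zmnf-ya1* for *BIG* (1.79, SE 0.19, adjusted p = 9.26e-06), *IAA4* (1.26, SE 0.31), the efflux carrier 1-like gene GRMZM2G149184 (1.26, SE 0.26) and *ARF5* (1.14, SE 0.33). It was lower for *ABP20* (-5.79), *GH3.13* (-2.57, SE 0.82), *SAUR14* (-1.93, SE 0.50), *IAA7* (-1.62, SE 0.22, adjusted p = 6.67e-05) and *IAA24* (-1.13, SE 0.15). *BIG* had 10.1 and 11.5 CPM in *zmnf-ya1* drought and 3.64 and 5.46 CPM in *zmnf-ya1* normal libraries, and 14.7 and 13.2 CPM in W22 drought and 20.5 and 20.4 CPM in W22 normal libraries, so it rose in the mutant and not in W22.

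In the B104 set the response was lower in *ZmNF-YB16* OE for the 15A-like SAUR gene (-2.65, SE 0.17, adjusted p = 5.34e-10), *ARF8* (-1.94, SE 0.52), *SAUR14* (-1.90, SE 0.61), *IAA20* (-1.65, SE 0.44) and *IAA24* (-1.04, SE 0.26), and higher for the AIR12-like gene GRMZM2G154578 (1.05, SE 0.33). In the DH4866 set it was higher in the libraries labelled *ZmNF-YA1* OE for *IAA25* (GRMZM2G059544, 2.14, SE 0.63) and *ABP20* (1.96, SE 0.49). It was lower for *SAUR55* (-5.65), the auxin-induced gene GRMZM2G156470 (-2.85, SE 0.85), GRMZM2G005146 (-1.40, SE 0.21, adjusted p = 3.41e-04), *PIN5c* (-1.38, SE 0.39), *IAA24* (-1.27, SE 0.13) and GRMZM2G154578 (-1.06, SE 0.24).

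*ABP20* was lower in the W22 set and higher in the DH4866 set, GRMZM2G154578 higher in the B104 set and lower in the DH4866 set, and *SAUR14* lower in the W22 and B104 sets. The fitted values of *ABP20* in the W22 set and of *SAUR55* rest on drought libraries with at most 2 counts and depend on the prior count of the fit. What lies behind these differences was not tested. Single libraries could not be checked against their group, since each group had 2.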

How the results depend on the processing

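Counts of called auxin genes were recomputed under 7 alternatives and with each library left out. Limma on log2(FPKM + 1) moved the calls by drought to 9 in *zmnf-ya1* and 9 in W22, 10 in the libraries labelled *ZmNF-YA1* OE and 14 in DH4866, those under normal conditions to 2 in *zmnf-ya1* against W22 and 2 in the labelled line against DH4866, the labelled line against DH4866 under drought to 1, and the interactions to 7 in the W22 and 5 in the DH4866 set. An adjusted p of at most 0.001 left 14 by drought in W22, 5 in *zmnf-ya1* against W22 under normal conditions and 1 under drought, 11 in *ZmNF-YB16* OE against B104 under drought, 1 in the labelled line against DH4866 under drought, and 6 interactions in the W22 set, 1 in the B104 set and 2 in the DH4866 set. DESeq2 gave 4 in *zmnf-ya1* against W22 under normal conditions, 1 in the labelled line against DH4866 under drought, and interactions of 7 in the W22 and 3 in the DH4866 set. Library size alone gave 20 interactions in the W22 set. With the replicate block the labelled line against DH4866 under drought gave 4; same-numbered libraries correlated at 0.030 to 0.097 (W22 set), -0.020 to 0.028 (B104 set) and 0.060 to 0.195 (DH4866 set), so no set had every pair above 0.1 and no pairing was assumed. Leaving out 1 library gave, for drought, 24 to 27 in *zmnf-ya1*, 21 to 26 in W22, 21 to 23 in *ZmNF-YB16* OE, 18 to 23 in B104, 21 to 23 in the labelled line and 28 to 30 in DH4866. Between genotypes it gave, first under normal conditions and then with drought, 6 to 10 and 1 to 3 in the W22 set, 10 to 13 and 16 to 20 in the B104 set, and 4 to 5 and 1 to 2 in the DH4866 set, and for the interactions 11 to 14, 3 to 6 and 2 to 7. The count under drought in the W22 set fell to 1 without W22 drought replicate 2, the B104 set interaction to 3 without B104 normal replicate 2, and the DH4866 set contrast under drought to 1 without DH4866 drought replicate 1 or either drought library of the labelled line. The DH4866 set interaction fell to 2 without DH4866 drought replicate 1, to 3 and 4 without drought replicates 1 and 2 of the labelled line, to 5 and 4 without its normal replicates 1 and 2, and to 5 without DH4866 normal replicate 1. Of 185 calls on named genes 92 held under every alternative that could be fitted, 93 were lost under at least 1, and 0 changed direction. Of these, 17 were lost under more alternatives than kept them: by drought *ARGOS9* and *SAUR20* in *zmnf-ya1*, *GH3.8* in W22, and *ARGOS9* and *ARF75* in B104; under normal conditions *GH3.12*, *ARGOS4* and GRMZM2G154578 in *zmnf-ya1* and *IAA13* and *GH3.13* in *ZmNF-YB16* OE; under drought *SAUR55* in the labelled line; and the interactions of GRMZM2G154578 and *SAUR14* in the B104 set and *PIN5c*, *IAA25*, GRMZM2G156470 and *SAUR55* in the DH4866 set. Depth limits the B104 set most.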

Other observations

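Another 17 auxin genes were called but not named by the rule, and those given here were chosen after their values were seen. The SAUR gene described as 6B-like (GRMZM2G330012) fell under drought in *zmnf-ya1* (log2 -1.76), W22 (log2 -1.41), the libraries labelled *ZmNF-YA1* OE (log2 -1.33) and DH4866 (log2 -2.36). The ARG7-like SAUR gene GRMZM2G442000 fell in the same 4 genotypes (log2 -1.73, -1.37, -1.41 and -1.46 in that order). The efflux carrier 1 gene GRMZM2G074267 fell in *zmnf-ya1* (log2 -1.33), W22 (log2 -1.79), *ZmNF-YB16* OE (log2 -1.38) and B104 (log2 -1.91). *ARF2* (GRMZM2G153233) rose in both genotypes of the B104 set alone (log2 1.77 in *ZmNF-YB16* OE and 1.42 in B104), and *IAA2* (GRMZM2G104176) and *IAA5* (GRMZM2G037368) fell in *ZmNF-YB16* OE (log2 -1.11 and -1.06). The gene described as auxin-independent growth promoter (GRMZM2G142664) rose in *ZmNF-YB16* OE (log2 1.51), B104 (log2 1.85) and DH4866 (log2 1.36).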
